A study of Rattus norvegicus with 30 samples.

Results

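The genes described here are 10 rat genes that together mark the alveolar type 2 cell, the lung cell that makes surfactant. They were taken by symbol from the table of read counts and the table of FPKM values (fragments scaled for gene length and library size), and all 10 were found once, among 22914 genes. The surfactant proteins are Sftpa1, Sftpb, Sftpc and Sftpd. The lamellar body, protein processing and lipid genes are Abca3, Lamp3, Napsa and Lpcat1, and Slc34a2 (phosphate transport) and Etv5 (transcription factor) complete the set. All 10 passed the filter on low counts that left 15934 genes for testing.

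The libraries came from the lungs of 30 male Sprague Dawley rats, 8 weeks old, which made up 10 groups of 3. There were 5 kinds of rat, named Sham, Con, SAP, DEX and Emo, and each was studied at 6 and 24 hours after the operation. In the Sham rats the pancreas was only turned, and in the Con rats saline went into the biliopancreatic duct. The SAP, DEX and Emo rats all received 5.0% sodium taurocholate by that route, which causes severe acute pancreatitis (SAP) and then acute lung injury. DEX rats were also given dexamethasone, a glucocorticoid, into a vein at 10 mg/kg, and Emo rats were given emodin, a plant anthraquinone, into the stomach. Emodin was dosed at 40 mg/kg by the treatment protocol and 10 mg/kg by the sample descriptions. Both drugs were due at 2 and 12 hours, so rats killed at 6 hours had received a single dose, and each rat was given the vehicle of any drug it did not receive, saline into a vein for dexamethasone and carboxymethylcellulose into the stomach for emodin. Each library held whole lung, so a lower level can come from fewer alveolar type 2 cells or from less RNA in each of them, and these cannot be told apart here.

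Surfactant is a film of phospholipid and protein that lowers surface tension in the alveolus. The lipid, mostly phosphatidylcholine, is packed with surfactant proteins B and C into lamellar bodies and secreted, while surfactant proteins A and D are soluble collectins of innate defence. Glucocorticoids are known to raise the making of surfactant in the developing lung, and the transcription factor NKX2-1 is known to drive several of its genes. Acute lung injury is known for loss or inactivation of surfactant.

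The 3 genes with the firmest calls below are Sftpb, Lamp3 and Lpcat1, so the 250 bases before their starts are shown, 5′ to 3′ on the strand of the gene, from the RefSeq promoter table of build GRCr8. The study names the Ensembl build rat_ensembl_v6, and its gene files give only the chromosome of each gene, so these positions belong to GRCr8 alone. The table held 7 of the 10 genes, and Sftpc, Sftpd and Napsa had no entry. Capitals mark CTCAAG, a core motif of NKX2-1, which was searched on both strands.
Sftpb, chr4:105917338-105917587, plus strand: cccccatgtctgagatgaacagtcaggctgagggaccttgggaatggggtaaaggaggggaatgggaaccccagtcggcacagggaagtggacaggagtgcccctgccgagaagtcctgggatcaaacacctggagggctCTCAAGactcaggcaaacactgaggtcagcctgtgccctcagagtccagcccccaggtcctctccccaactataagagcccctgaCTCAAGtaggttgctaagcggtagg
Lamp3, chr11:94697772-94698021, plus strand: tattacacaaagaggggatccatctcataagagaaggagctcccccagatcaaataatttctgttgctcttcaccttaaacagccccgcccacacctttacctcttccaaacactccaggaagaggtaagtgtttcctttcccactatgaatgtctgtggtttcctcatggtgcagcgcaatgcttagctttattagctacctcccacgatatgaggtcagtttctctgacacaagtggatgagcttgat
Lpcat1, chr1:31644947-31645196, minus strand: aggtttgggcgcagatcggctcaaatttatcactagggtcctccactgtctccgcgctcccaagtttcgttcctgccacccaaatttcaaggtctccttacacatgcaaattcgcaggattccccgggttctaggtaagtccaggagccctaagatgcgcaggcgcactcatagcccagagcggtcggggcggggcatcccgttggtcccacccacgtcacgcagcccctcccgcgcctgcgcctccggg

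Over windows of 300 bases, which also take in the first 50 bases after the start, CTCAAG stood in 15.8% of all 33469 promoters and in 1 of the 7 searched here. Sftpb held it in 2 places, beginning 110 and 25 bases before the start. AGAACA, a half-site of the glucocorticoid receptor, was searched on both strands too, stood in 20.7% of all promoters and was found in Sftpa1 (159 bases before the start) and Lamp3 (9 bases after it). The 2 motifs do not overlap. These matches describe letters only.

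Of the surfactant protein genes, 3 were among the most abundant messages of the lung. Within the 10 groups Sftpc ranked between 2nd and 3rd by mean FPKM, Sftpb between 4th and 12th and Sftpa1 between 9th and 17th. By mean FPKM over the 30 libraries, Sftpc ranked 2nd of all genes with 22994, Sftpb 5th with 6020 and Sftpa1 12th with 4182. Slc34a2 (563), Napsa (435) and Sftpd (264) formed a middle level, Lpcat1 (72.1), Lamp3 (70.1) and Abca3 (63.6) a lower one, and Etv5 was lowest at 23.9. FPKM is per gene length, so these levels can be set beside each other. The 10 genes together took between 3.805% of the reads on genes in Sham-6h rat 2 (95% Wilson interval 3.797 to 3.812) and 7.24% in SAP-24h rat 2 (7.233 to 7.251), intervals that cover counting error only. Reads on genes per library ran from 16813949 in SAP-6h rat 3 to 34692306, and even Etv5 had at least 1771 reads in every library.

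The rats of a group differed from each other far more than counting error allows, and they did so for many of these genes at once. In SAP-24h, rat 2 had the highest level of 9 of the 10 genes, and its Sftpa1, Sftpc and Sftpd were the highest of all 30 rats. SAP-24h rat 1 had the lowest level of 7 genes, and its Abca3 and Etv5 were the lowest of all 30. In the same way Sham-6h rat 3, SAP-6h rat 3 and Con-6h rat 1 each led their group in 9 genes. The coefficient of variation in SAP-24h reached 41.4% for Sftpa1 and 40.9% for Sftpd, and the smallest in any group was 2.37%, for Slc34a2 in Sham-24h. Calls of these 10 genes that rest on SAP-24h are therefore also given without rat 2.

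**Figure D1:**
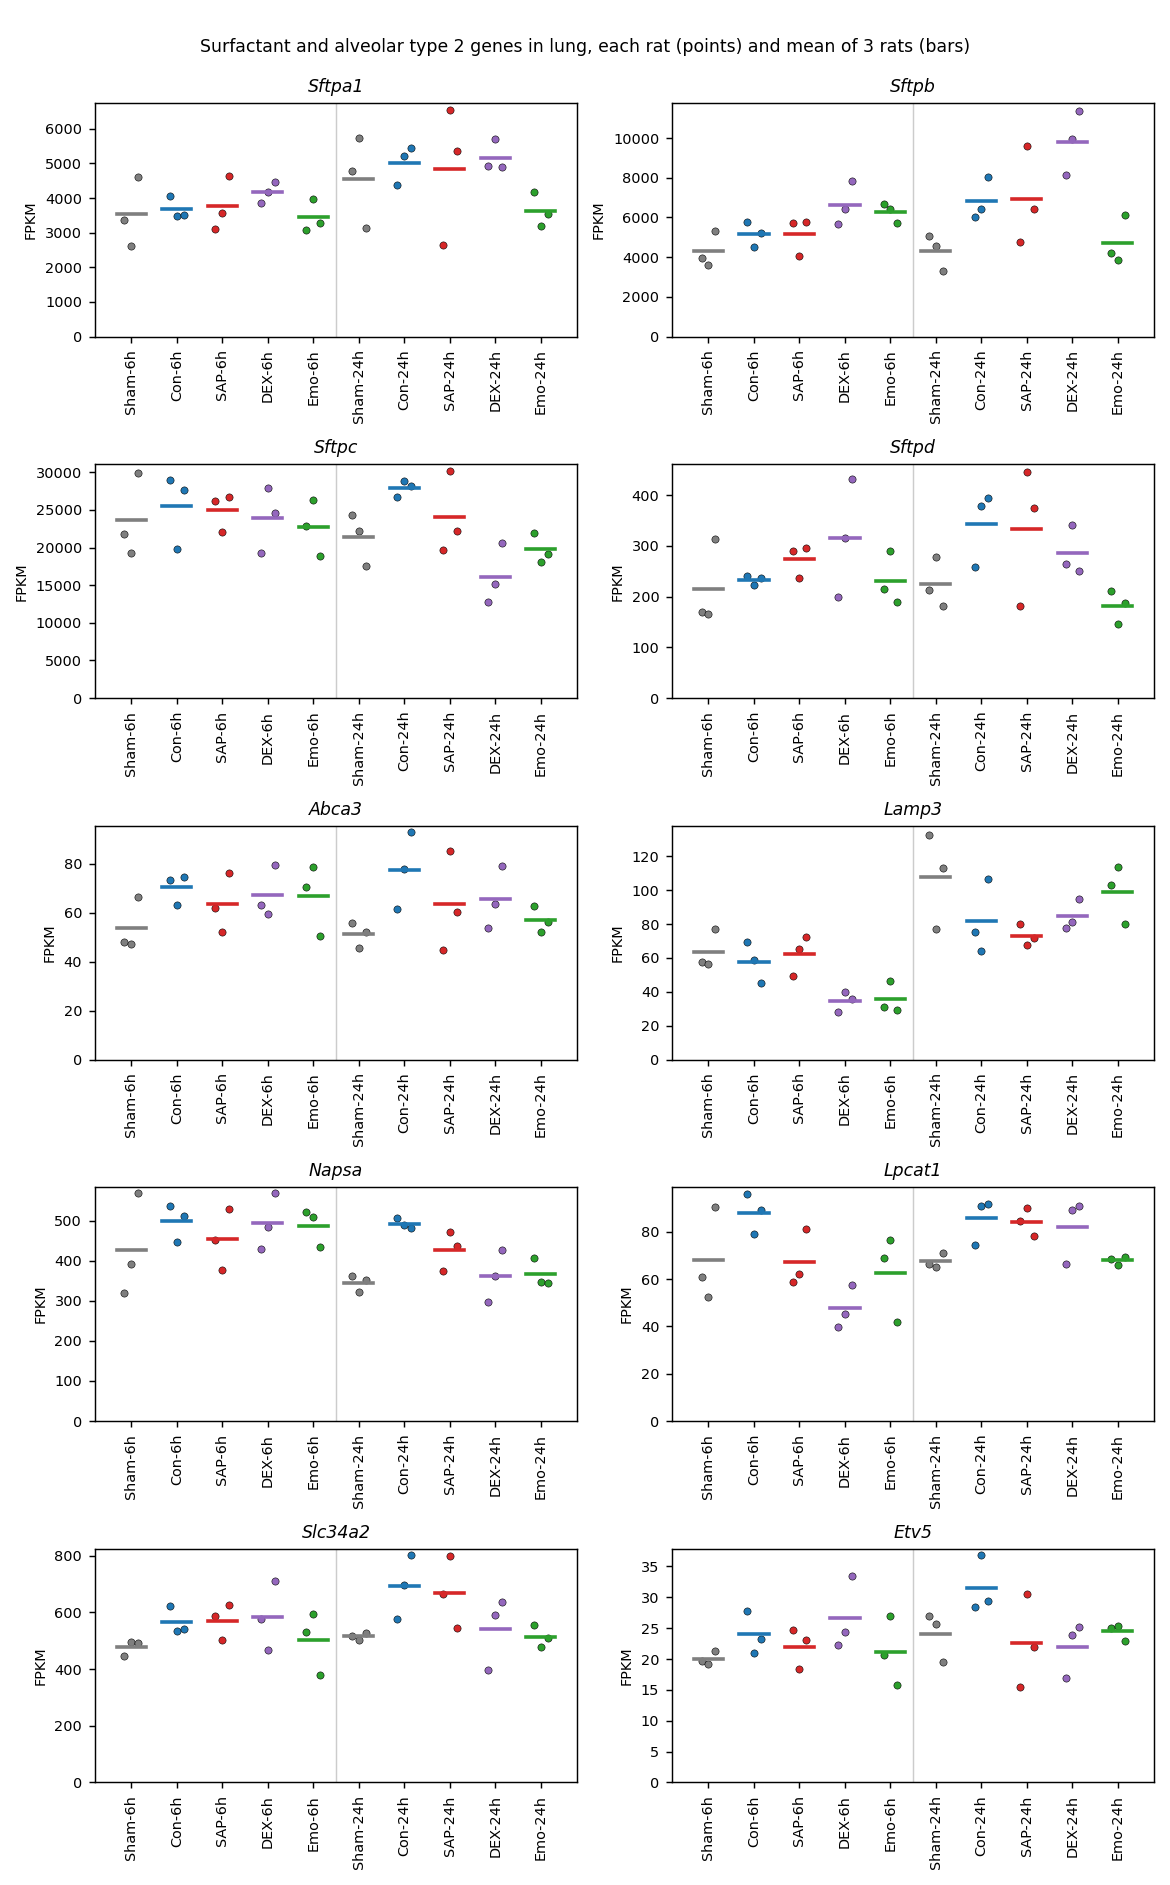
FPKM (vertical axes, from 0) of each of the 10 genes in each of 30 rats (points), with the mean of 3 rats (bars), by group (horizontal axes, 6 h left and 24 h right of the line). Sftpb stands highest in DEX-24h, where the rats lie between 8150 and 11371, and Lamp3 stands lowest in DEX-6h and Emo-6h.

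Gene by gene, group means differed by 1.45-fold to 3.11-fold between the highest and the lowest group. The widest range belonged to Lamp3 (3.11-fold, Sham-24h over DEX-6h), followed by Sftpb (2.28-fold, DEX-24h over Sham-6h), Sftpd (1.89-fold, Con-24h over Emo-24h) and Lpcat1 (1.85-fold, Con-6h over DEX-6h). Sftpc ranged over 1.73-fold, from 27888 in Con-24h to 16152 in DEX-24h. When the 10 groups were put in order of their means, most neighbours in the order lay within their spread. The means of neighbouring groups lay apart by more than their SD in 2 of 9 steps for Sftpb, in 1 step each for Sftpd, Lamp3 and Lpcat1, and in none for Sftpa1, Sftpc, Abca3, Napsa, Slc34a2 and Etv5.

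Tests were made in edgeR's quasi-likelihood model of the counts, with p-values adjusted by the Benjamini-Hochberg method over all 15934 genes. The word called is used where the adjusted p was under 0.05, and DEG where the change was also at least 2-fold. Over 21 comparisons of 2 groups the 10 genes gave 210 tests and 10 calls, which fell in 8 comparisons and on 5 genes: Sftpb, Sftpd, Lamp3, Lpcat1 and Napsa. Of these calls, 5 reached 2-fold. Sftpa1, Sftpc, Abca3, Slc34a2 and Etv5 had no call. In each comparison the share of the 10 genes called is set below beside the share of all genes called there.

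**Figure D2:**
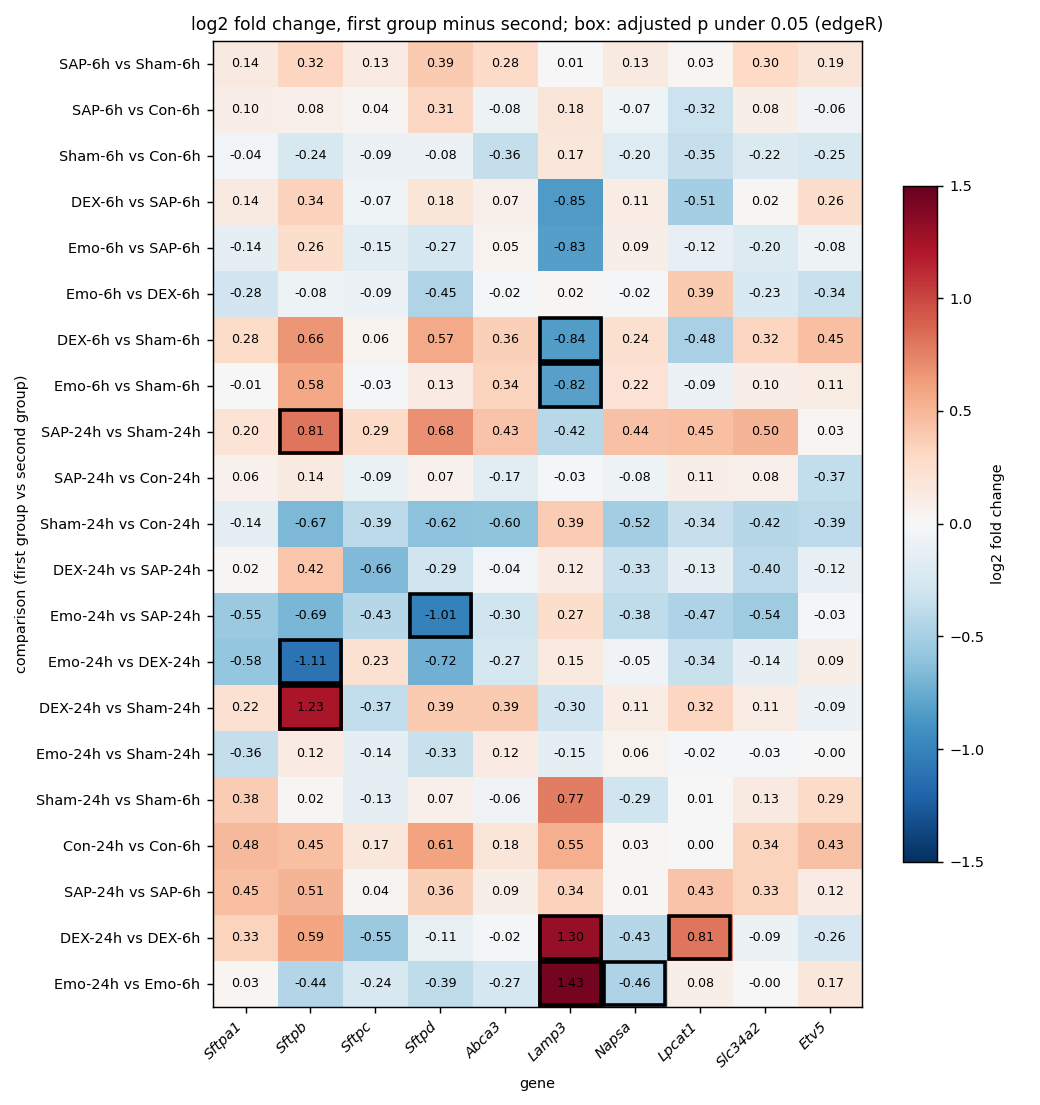
The log2 fold change of each gene (columns) in each of 21 comparisons (rows), as the first group minus the second, red for higher and blue for lower, from edgeR. Boxes mark the 10 calls (adjusted p under 0.05), which include Sftpb in DEX-24h vs Sham-24h (1.23) and Lamp3 in Emo-24h vs Emo-6h (1.43).

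SAP was compared with Sham to see what pancreatitis did to these genes in the lung. At 6 hours 0 of 10 genes were called by edgeR, against 0.27% of all genes, with 0 at an unadjusted p under 0.05 and 0 by DESeq2. All 10 log2 fold changes were above 0, but they were small, with a median of 0.16 (all genes -0.02) and a highest value of 0.39 for Sftpd. The summed FPKM of 5 red blood cell markers was also higher in every SAP-6h than in every Sham-6h rat (6261 to 9501 against 770 to 3643). So was that of 6 endothelial markers (1203 to 1615 against 1139 to 1150), and the part of these markers was not tested. At 24 hours Sftpb was called, which is 1 of 10 genes against 12.4% of all genes. Here 9 of 10 log2 fold changes were above 0 with a median of 0.43 (all genes -0.03), Lamp3 being the exception at -0.42.

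Sftpb encodes surfactant protein B, which is needed for lamellar bodies and for a working surface film. Its FPKM was 5049, 4564 and 3313 in the 3 Sham-24h rats. In the SAP-24h rats it was 4785, 9617 and 6430. The groups overlapped, since SAP-24h rat 1 lay below Sham-24h rat 1. Sftpb was up-regulated in SAP-24h vs Sham-24h with a log2 fold change of 0.81 (SE 0.24, 1.75-fold, adjusted p = 0.0289 by edgeR). The call was lost without SAP-24h rat 2 (log2 fold change 0.53, adjusted p = 0.149), without Sham-24h rat 2 (adjusted p = 0.0633) and without Sham-24h rat 3 (adjusted p = 0.0978), and in a fit of the 6 libraries alone (adjusted p = 0.164).

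With Sftpb, 5 of the 10 genes had an unadjusted p under 0.05 in SAP-24h vs Sham-24h, against 28.4% of all genes. The other 4, which did not pass the adjustment, were Slc34a2, the phosphate carrier of the type 2 cell (log2 fold change 0.50, SE 0.18, adjusted p = 0.0728), Napsa, an aspartic protease that trims the precursors of surfactant proteins B and C (0.44, SE 0.17, 0.0954), Sftpd, a collectin (0.68, SE 0.29, 0.126), and Lpcat1, which remodels phosphatidylcholine into its surfactant form (0.45, SE 0.20, 0.143), all from the edgeR fit. Slc34a2 was called without SAP-24h rat 3 (adjusted p = 0.0327). DESeq2 called Slc34a2 (0.54, adjusted p = 0.0293) and Napsa (0.47, adjusted p = 0.0474), where it called 17.1% of all genes. Without SAP-24h rat 2 the log2 fold changes were 0.40 for Slc34a2, 0.39 for Napsa, 0.44 for Sftpd and 0.43 for Lpcat1. Their mean levels in Sham-24h and SAP-24h were 516 and 669 FPKM for Slc34a2, 345 and 428 for Napsa, 224 and 334 for Sftpd, and 67.6 and 84.3 for Lpcat1. For 3 of the 10 genes (Napsa, Lpcat1 and Slc34a2) every SAP-24h rat was above every Sham-24h rat, against 7.58% of all genes. The median log2 fold change of the 4 surfactant protein genes was 0.72, 0.29 and 0.49 without SAP-24h rat 1, 2 or 3.

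Other cell types moved in the same comparison. The summed FPKM of 7 neutrophil markers ran from 4605 to 17706 in SAP-24h and from 402 to 9493 in Sham-24h, with 7 of 7 log2 fold changes above 0 and none called. The sum of 7 T cell markers ran from 20.1 to 23.8 in SAP-24h against 63.5 to 91.7 in Sham-24h, with 4 of 7 down-regulated. The sum of 7 alveolar type 1 markers ran from 1272 to 2574 against 2529 to 3300, with 3 of 7 down-regulated. The sum of 6 fibroblast markers ran from 139.7 to 247.6 in SAP-24h against 332.3 to 521.0 in Sham-24h, with 3 of 6 down-regulated and 1 up-regulated (median log2 fold change -1.55). The sum of 5 club cell markers was higher in every SAP-24h rat (37525 to 47318 against 19979 to 36400, 1 up-regulated, and 0 without SAP-24h rat 1 or 2), and that of 6 ciliated cell markers was lower (277.5 to 541.0 against 578.4 to 690.5, none called). The median log2 fold change of the club cell list was 0.60, 0.67 and -0.40 without SAP-24h rat 1, 2 or 3. With SAP-24h rat 2 left out, 3 of 7 T cell, 1 of 7 alveolar type 1 and 2 of 6 fibroblast markers were down-regulated, and with rat 1 left out 1, 0 and 1 were. No marker in these lists was at 0 in every library, and their part in the Sftpb result was not tested. The share of reads that mapped uniquely, as listed in the study's supplement, also set every taurocholate library apart from every Sham and Con library, so mapping and infusion cannot be told apart. Among the taurocholate rats killed at 24 hours this share differed without overlap as well, being lowest in SAP-24h, higher in DEX-24h and highest in Emo-24h. It was also lower in every DEX-6h than in every SAP-6h library, and higher at 24 than at 6 hours in DEX and in Emo. It therefore moves with the comparisons of DEX-24h, Emo-24h and SAP-24h, with DEX-6h vs SAP-6h and with both drug time comparisons below, and its part in them was not tested.

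The 2 kinds of control were compared with each other too. The study states that saline in the duct caused a mild pancreatitis, and it took Sham as its control for that reason. In Sham-24h vs Con-24h, 9 of 10 log2 fold changes were below 0 with a median of -0.41 (all genes 0.02), and for 7 of 10 genes every Sham-24h rat lay below every Con-24h rat, against 13.7% of all genes. No gene of the set was called by edgeR (all genes 9.85%), 5 had an unadjusted p under 0.05 (all genes 27%), and DESeq2 called 3, Sftpb, Abca3 and Napsa (all genes 15.7%). Napsa had 363, 321 and 351 FPKM in Sham-24h and 507, 489 and 481 in Con-24h (log2 fold change -0.52, SE 0.17, adjusted p = 0.0563 by edgeR). Sftpb had means of 4309 and 6834 FPKM (log2 fold change -0.67, SE 0.24, adjusted p = 0.0708 by edgeR), and Abca3, the lipid pump of the lamellar body, had 51.3 and 77.4 (-0.60, SE 0.21, adjusted p = 0.0656). Markers of other cells differed in this comparison too, since 3 of 7 neutrophil markers were higher in Sham-24h (7 of 7 above 0, median 2.91, summed FPKM 402 to 9493 against 212 to 1236). All 7 epithelial markers were below 0 (median -0.43, none called, summed FPKM 448 to 499 against 518 to 676). The sums of 5 club cell markers (19979 to 36400 against 36466 to 43978), 6 ciliated cell markers (578.4 to 690.5 against 773.7 to 826.0) and 6 endothelial markers (833.3 to 1076 against 1115 to 1351) were lower in every Sham-24h than in every Con-24h rat, with none of these markers called. The sum of 6 macrophage markers was higher in every Sham-24h rat (177.7 to 180.6 against 165.6 to 173.3, none called), and the part of these markers was not tested.

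SAP was also compared with Con, the rats given saline into the duct. In SAP-24h vs Con-24h, 0 of 10 genes were called by edgeR while 22.1% of all genes were, with 0 at an unadjusted p under 0.05 and 0 by DESeq2, and the median log2 fold change was 0.01. Without SAP-24h rat 2, Etv5 was called (log2 fold change -0.62, adjusted p = 0.0447). Of the neutrophil markers 6 of 7 were higher (median log2 fold change 4.65), and of the T cell markers 6 of 7 were lower in SAP-24h than in Con-24h, both also without rat 2. The sums of 6 ciliated (277.5 to 541.0 against 773.7 to 826.0), 7 alveolar type 1 (1272 to 2574 against 2667 to 3574), 7 epithelial (351.9 to 468.5 against 517.8 to 675.6) and 6 endothelial markers (908.7 to 960.4 against 1115 to 1351) were lower in every SAP-24h rat. The median log2 fold change of the ciliated list was only -0.10, -0.18 and -0.09 without SAP-24h rat 1, 2 or 3. In the same order it was -0.17, -0.16 and -0.09 for the epithelial list. For the type 1 list it was -0.09, -0.74 and -0.91, and for the endothelial list -0.45, -0.28 and -0.31. For 8 further alveolar type 2 markers the sum was higher in every SAP-24h rat (25377 to 33004 against 19613 to 22568), with 1 called higher and 1 lower, and 0 and 1 without rat 2. The median log2 fold change of these 8 went the other way, at -0.13, -0.53 and -0.39 without SAP-24h rat 1, 2 or 3, so the sum does not stand for most of them. Of 6 fibroblast markers 1 was higher and 2 lower without SAP-24h rat 2 (median log2 fold change -1.04). Without rat 3 it was 1 and 3 (median -1.47), and without rat 1 it was 0 and 0 (median -0.66). Their summed FPKM overlapped (139.7 to 247.6 in SAP-24h against 227.8 to 450.2 in Con-24h). Whether these markers have a part in the Etv5 call was not tested. In SAP-6h vs Con-6h the counts were also 0 of 10 by edgeR (all genes 0.207%), 0 at an unadjusted p and 0 by DESeq2. In Sham-6h vs Con-6h, 9 of 10 log2 fold changes were below 0 with a median of -0.21, and 0 of 10 genes (all genes 0%) were called by edgeR, with 0 at an unadjusted p and 0 by DESeq2. The comparisons of SAP-24h and of Con-24h with Sham-24h use the same 3 Sham rats. For Sftpb the SAP-24h mean of 6944 FPKM was near the Con-24h mean of 6834, and both were above the Sham-24h mean of 4309.

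Dexamethasone at 24 hours came with the highest Sftpb and the lowest Sftpc of any group. The DEX-24h rats had 8150, 9931 and 11371 FPKM of Sftpb, and the Sham-24h rats 5049, 4564 and 3313. Every DEX-24h rat was above every Sham-24h rat, and the log2 fold change was 1.23 (SE 0.24, 2.34-fold, adjusted p = 0.00281 by edgeR), which makes Sftpb a DEG. It was the only one of the 10 genes called (6.97% of all genes, or 4.15% with the 2-fold rule), with an unadjusted p under 0.05 (19.9%) or above Sham-24h in every rat (10.2%). It stayed called with each of the 6 libraries left out in turn (adjusted p 0.0045 to 0.0167) and under each of the 5 other settings. Against SAP-24h the log2 fold change of Sftpb was 0.42, without a call.

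Sftpc, which encodes the small hydrophobic surfactant protein C and is made almost only by type 2 cells, had its lowest group mean in DEX-24h. Its FPKM was 12733, 15112 and 20612 in DEX-24h against 19727, 30191 and 22155 in SAP-24h. The groups overlapped, and the log2 fold change was -0.66 (SE 0.21, adjusted p = 0.0593 by edgeR). DESeq2 called it (adjusted p = 0.0191), and so did edgeR without DEX-24h rat 3 (adjusted p = 0.0385). Without SAP-24h rat 2 the value was -0.48 (adjusted p = 0.203). Several marker sums separated DEX-24h from SAP-24h without overlap. Lower in DEX-24h were those of 8 further alveolar type 2 markers (18471 to 22601 against 25377 to 33004, 1 called lower), 5 club cell markers (25566 to 36365 against 37525 to 47318, none called), 7 T cell markers (12.2 to 19.0 against 20.1 to 23.8, none called) and 4 B cell markers (5.4 to 11.8 against 20.01 to 35.0, 3 called lower). Higher were those of 7 epithelial markers (474.8 to 908.5 against 351.9 to 468.5, 1 called) and 6 endothelial markers (981.9 to 1126 against 908.7 to 960.4, 1 called). The endothelial list was not higher by its median log2 fold change, at 0.002, -0.07 and -0.09 without SAP-24h rat 1, 2 or 3. For the club cell list this median was -0.07, -0.28 and 0.33 in the same order, so its sign was not stable. The 3 B cell calls became 2 without SAP-24h rat 1, 3 without rat 2 and 0 without rat 3. Of the further type 2 markers 1 was called higher and 1 lower without rat 2, and 2 lower without rat 3, and the endothelial call was lost without rat 1. The part of these markers in the Sftpc and other results of this comparison was not tested. Against DEX-6h the value was -0.55 (SE 0.21, adjusted p = 0.0582), which passed the threshold with RLE scaling (0.0472), by DESeq2 (0.025), without DEX-24h rat 3 (0.026) and without DEX-6h rat 1 (0.0392).

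The ratio of Sftpc to Sftpb sets both levels in a single value. It was 1.56, 1.52 and 1.81 in the DEX-24h rats (mean 1.63 ± 0.16 SD, n = 3). In the other 27 rats it was between 3.14 and 5.63, so that no other rat came near the DEX-24h range. The group means were 5.48 ± 0.15 in Sham-6h, 5.00 ± 0.26 in Sham-24h, 3.57 ± 0.50 in SAP-24h, 3.63 ± 0.63 in DEX-6h, 3.60 ± 0.44 in Emo-6h and 4.34 ± 1.07 in Emo-24h (SD, n = 3 each). This ratio was chosen after the levels were seen and is given with no test.

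**Figure D3:**
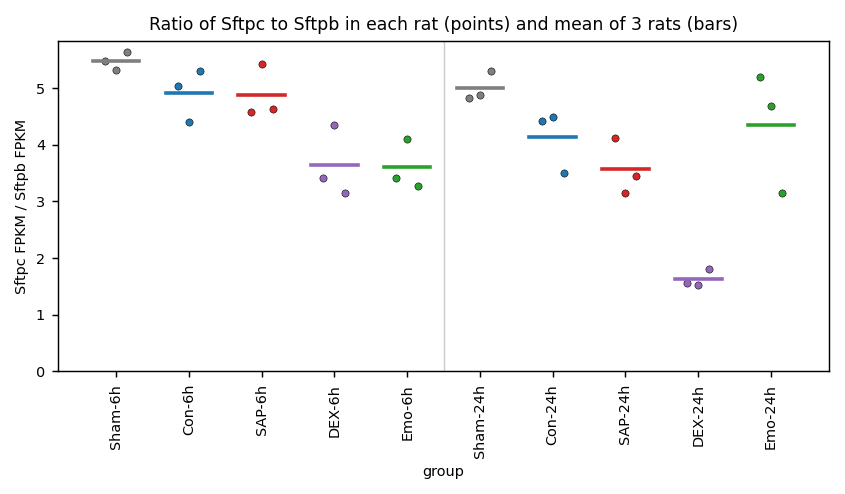
Ratio of Sftpc FPKM to Sftpb FPKM (vertical axis, from 0) in each rat (points) with the mean of 3 rats (bars), by group (horizontal axis). The DEX-24h rats lie between 1.52 and 1.81, and the other 27 rats lie between 3.14 and 5.63.

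DEX-24h vs SAP-24h gave 0 of 10 calls by edgeR against 7.71% of all genes, with 2 genes, Sftpc and Slc34a2, at an unadjusted p under 0.05 (all genes 23.1%) and 1, Sftpc, called by DESeq2 (all genes 11%). At 6 hours DEX vs SAP gave 0 of 10 by edgeR against 0.979% of all genes, with 2, Lamp3 and Lpcat1, at an unadjusted p under 0.05 (all genes 12.1%) and 1, Lamp3, by DESeq2 (all genes 2.65%). Sgk1, a textbook target of the glucocorticoid receptor, was up-regulated by DEX against SAP at both times, with log2 fold changes of 1.02 (SE 0.20, adjusted p = 0.0158) at 6 hours and 1.92 (SE 0.21, adjusted p = 2.2e-05) at 24 hours by edgeR. It was the only one of 9 tested rows of such target genes to pass in either comparison, with 9 and 8 of the 9 log2 fold changes above 0. At 24 hours 1 of the 9 was called higher and 1 lower without SAP-24h rat 2, and likewise without rat 3. Against Sham, 5 of the 9 passed as higher in DEX-6h (median log2 fold change 1.04) and 3 in DEX-24h (median 1.36), where 9.75% and 6.97% of all genes were called. In Emo-24h 8 of the 9 were lower than in DEX-24h (median -1.39) and 3 lower than in SAP-24h (median -0.87), where 8.89% and 8.59% of all genes were called. The summed FPKM of the 9 rows was 5456 in SAP-24h rat 1 and 1300 and 1364 in rats 2 and 3, and the 3 calls in Emo-24h vs SAP-24h became 0 without rat 1 and 2 without rat 2. Of the 8 calls in Emo-24h vs DEX-24h, those of Dusp1, Per1, Cdkn1a and Zbtb16 were lost without Emo-24h rat 1 or 2. The Sgk1 call at 24 h held with each library left out, and the one at 6 h was lost without DEX-6h rat 1 or SAP-6h rat 2 or 3 (highest adjusted p = 0.0913).

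Of the surfactant protein genes, Sftpd was down-regulated in Emo-24h against SAP-24h, and Sftpb against DEX-24h. In Emo-24h vs SAP-24h, 9 of 10 log2 fold changes were below 0 with a median of -0.45 (all genes 0.02), 6 genes had an unadjusted p under 0.05 (26.3% of all genes) and 1 of 10 was called (8.59% of all genes, or 3.19% with the 2-fold rule). The called gene was Sftpd, whose product binds the sugars of microbes. Its FPKM was 212, 146 and 188 in Emo-24h and 182, 446 and 375 in SAP-24h. The groups overlapped because SAP-24h rat 1 was low, and the log2 fold change was -1.01 (SE 0.29, 2.02-fold, adjusted p = 0.0367 by edgeR), a DEG.

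That Sftpd call is not firm. It was lost without SAP-24h rat 2 (log2 fold change -0.78, adjusted p = 0.127), without SAP-24h rat 3 (adjusted p = 0.0768), and without Emo-24h rat 1, 2 or 3 (adjusted p 0.0775, 0.141 and 0.055), and in a fit of the 6 libraries alone (0.152). With 1 of the 6 libraries left out, the call held only without SAP-24h rat 1 (log2 fold change -1.30, adjusted p = 0.0228 by edgeR). The other genes with an unadjusted p under 0.05 were Sftpb (log2 fold change -0.69, adjusted p = 0.07), Slc34a2 (-0.54, 0.0683), Sftpa1 (-0.55, 0.153), Lpcat1 (-0.47, 0.142) and Napsa (-0.38, 0.16), all by edgeR. Sftpb was called without Emo-24h rat 3 (adjusted p = 0.0229) or SAP-24h rat 1 (0.0492), Sftpa1 without SAP-24h rat 1 (0.0429) and Slc34a2 without SAP-24h rat 3 (0.0331). DESeq2 called Sftpb (-0.71, adjusted p = 0.0258) and Slc34a2 (-0.57, adjusted p = 0.0241), where it called 13.7% of all genes. Without SAP-24h rat 2 the log2 fold changes were -0.42 for Sftpb, -0.44 for Slc34a2, -0.30 for Sftpa1, -0.45 for Lpcat1 and -0.34 for Napsa. For Lpcat1 alone every Emo-24h rat lay below every SAP-24h rat, which is 1 of 10 genes against 6.23% of all genes.

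Other cell types differed between Emo-24h and SAP-24h as well. Of 7 T cell markers 2 were higher in Emo-24h (7 of 7 above 0, median 1.58, summed FPKM 25.7 to 92.1 against 20.1 to 23.8), with 1 without SAP-24h rat 2 and 0 without rat 1 or 3. No neutrophil marker was called, with 0 of 7 above 0 and a median of -1.21 (summed FPKM 4627 to 6835 against 4605 to 17706). Of 6 fibroblast markers 1 was higher and 1 lower (median 1.16, summed FPKM 215.6 to 428.5 against 139.7 to 247.6), and without SAP-24h rat 2 none was higher and 1 lower. The sum of 4 B cell markers was higher in every Emo-24h rat (36.8 to 64.9 against 20.01 to 35.0, none called), and that of 8 further alveolar type 2 markers was lower (18371 to 21807 against 25377 to 33004, 1 called, and 0 without SAP-24h rat 1 or 2). The median log2 fold change of these 8 was -0.37, -0.09 and -0.09 without SAP-24h rat 1, 2 or 3. The part of these markers in the Sftpd result was not tested.

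At 24 hours Sftpb was lower in Emo than in DEX. Its means were 4737 FPKM in Emo-24h, 9818 in DEX-24h and 4309 in Sham-24h, and Emo-24h vs Sham-24h gave no call. The Emo-24h rats had 4230, 3865 and 6115 FPKM and the DEX-24h rats 8150, 9931 and 11371, so every Emo-24h rat was lower. The log2 fold change was -1.11 (SE 0.24, 2.15-fold, adjusted p = 0.00521 by edgeR), the only call among the 10 genes (8.89% of all genes, or 5.06% with the 2-fold rule). At an unadjusted p under 0.05 there were 3 of 10 (21.2% of all genes), and the same number lay below DEX-24h in every Emo-24h rat (10.8%). The Sftpb call held with each of the 6 libraries left out (adjusted p 0.00126 to 0.0412) and under each of the 5 other settings. Sftpa1 and Sftpd were the others that were lower in every Emo-24h rat than in every DEX-24h rat (log2 fold changes -0.58 and -0.72, SE 0.25 and 0.29), without a call (adjusted p = 0.161 and 0.14 by edgeR). The comparisons with Sham-24h and with Emo-24h use the same 3 DEX-24h rats.

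Against Sham, Emo-24h gave no call. Emo-24h vs Sham-24h gave 0 of 10 calls by edgeR (all genes 0%), 0 at an unadjusted p under 0.05 and 0 by DESeq2, and the log2 fold changes ran from -0.36 for Sftpa1 to 0.12 for Sftpb with SEs of 0.17 to 0.25, so that changes of this size were not detectable with 3 rats a group. At 6 hours, Emo vs SAP and Emo vs DEX also gave 0 of 10 calls by edgeR (all genes 0.0314% and 2.88%). Emo-6h vs SAP-6h had 1 gene, Lamp3, at an unadjusted p under 0.05 (all genes 13.5%), which DESeq2 also called (all genes 0.672%), while Emo-6h vs DEX-6h had 0 of both.

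In DEX-24h the sum of the 7 T cell markers was 12.2 to 19.0 FPKM, against 63.5 to 91.7 in Sham-24h and 25.7 to 92.1 in Emo-24h, and all 7 passed the test in both comparisons. The sum of the 4 B cell markers was 5.4 to 11.8 in DEX-24h, 20.9 to 48.8 in Sham-24h and 36.8 to 64.9 in Emo-24h. Of these 4, 3 were lower in DEX-24h than in Sham-24h and all 4 higher in Emo-24h than in DEX-24h by the test. The sum of the 6 fibroblast markers was 167.1 to 228.8 in DEX-24h, 332.3 to 521.0 in Sham-24h and 215.6 to 428.5 in Emo-24h, with 2 of 6 lower against Sham-24h and 1 of 6 higher in Emo-24h vs DEX-24h. Against Sham-24h the sums of 6 ciliated cell (476.6 to 566.9) and 6 macrophage markers (112.8 to 166.0) were lower in every DEX-24h rat, with 0 and 1 called, the latter higher. The sum of 5 red blood cell markers was lower in every Emo-24h than in every DEX-24h rat (288.7 to 1345 against 1361 to 1674, none called). The sum of 7 general epithelial markers was 475 to 908 in DEX-24h, 448 to 499 in Sham-24h and 450 to 502 in Emo-24h. For 8 further alveolar type 2 markers it was 18471 to 22601 in DEX-24h, 19623 to 27584 in Sham-24h and 18371 to 21807 in Emo-24h, and the ranges of the epithelial and type 2 sums overlapped between these groups. Of the 7 epithelial markers, 7 were above 0 in DEX-24h vs Sham-24h (median 0.53, 1 called) and 0 were above 0 in Emo-24h vs DEX-24h (median -0.48, none called), the same directions as Sftpb. The part of these markers in the Sftpb result was not tested.

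Lamp3 was lower in both drug groups than in Sham at 6 hours and rose with time in both. It encodes a lysosomal membrane protein of the lamellar body, and its human counterpart is also known from mature dendritic cells. At 6 hours its FPKM was 28.3, 40.0 and 35.7 in DEX and 31.1, 46.4 and 29.1 in Emo. It was 57.4, 56.7 and 77.02 in Sham and 49.4, 65.5 and 72.4 in SAP. Both drugs were compared with the same 3 Sham-6h and the same 3 SAP-6h rats, and the comparisons with time reuse the drug rats of 6 hours. Every rat on either drug was below every Sham and SAP rat at 6 hours, while Con-6h rat 3 lay below Emo-6h rat 2.

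Against Sham-6h, Lamp3 was down-regulated by 0.84 on the log2 scale in DEX-6h (log2 fold change -0.84, SE 0.22, adjusted p = 0.0197 by edgeR) and in Emo-6h (-0.82, SE 0.22, adjusted p = 0.0445). Each was 1 of 10 genes called, against 9.75% and 3.26% of all genes, and 1 of 10 with every drug rat below every Sham rat, against 16.2% and 12%. Against SAP-6h the log2 fold changes were almost equal, -0.85 and -0.83, but the adjusted p-values were 0.0694 and 0.203, so no call was made there. The difference between those comparisons was not tested. In DEX-6h the summed FPKM of the 7 T cell markers was 46.4 to 57.0, below the 57.7 to 145.5 of Sham-6h, with 0 of 7 log2 fold changes above 0 (median -0.74) and 1 called. For the 6 macrophage markers the sums were 112.2 to 186.2 in DEX-6h and 173.0 to 256.7 in Sham-6h (median -0.67, 1 called lower). In Emo-6h the T cell sum was 61.3 to 129.3 and the macrophage sum 175.5 to 255.6, both overlapping Sham-6h, with none of either list called. The sum of 6 endothelial markers was 1139 to 1150 in Sham-6h, and it was higher in every DEX-6h rat (1404 to 1544, 1 called higher and 1 lower) and every Emo-6h rat (1152 to 1725, none called). The part of these markers in the Lamp3 calls was not tested.

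Sftpb stood above Sham at 6 hours in both drug groups without passing the edgeR test. Its FPKM was 5647, 6414 and 7828 in DEX-6h, 6704, 6412 and 5745 in Emo-6h, and 3970, 3609 and 5315 in Sham-6h. The log2 fold changes were 0.66 (SE 0.24, adjusted p = 0.078 by edgeR) and 0.58 (SE 0.24, adjusted p = 0.144). The first was called by DESeq2 (adjusted p = 0.0345) and by edgeR without Sham-6h rat 3 (adjusted p = 0.0467). At an unadjusted p under 0.05 there were 4 of 10 genes in DEX-6h vs Sham-6h (Sftpb, Lamp3, Lpcat1 and Etv5), against 25.3% of all genes. In Emo-6h vs Sham-6h there were 2 of 10 (Sftpb and Lamp3), against 22.6%.

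Both Lamp3 calls against Sham-6h were near the threshold. The DEX-6h call was lost without DEX-6h rat 1 (adjusted p = 0.102), DEX-6h rat 3 (0.0625) or Sham-6h rat 3 (0.0853), and in a fit of the 6 libraries alone (0.0629). The Emo-6h call was lost without Emo-6h rat 1 (0.16), Emo-6h rat 3 (0.143), or Sham-6h rat 1 (0.104), 2 (0.0656) or 3 (0.0929). It was also lost with no filter on low counts (0.0582) and in a fit of the 6 libraries alone (0.219).

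Between 6 and 24 hours Lamp3 rose within both drug groups. At 24 hours it was 77.7, 81.5 and 95.1 FPKM in DEX and 103, 114 and 79.9 in Emo, and every rat was above every 6 h rat of its group. The log2 fold changes were 1.30 (SE 0.22, 2.47-fold, adjusted p = 0.000393) for DEX and 1.43 (SE 0.23, 2.70-fold, adjusted p = 9.39e-05) for Emo by edgeR, both DEGs. A call with at least 2-fold was made for 7.14% and 9.41% of all genes, and 21% and 26.2% of all genes were higher in every 24 h rat. The Lamp3 calls held with each library left out (adjusted p 0.00111 to 0.00384, and 8.54e-05 to 0.00135) and under each of the 5 other settings.

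Without a drug the change with time was in the same direction and smaller. The log2 fold change of Lamp3 from 6 to 24 hours was 0.77 in Sham (SE 0.22, adjusted p = 0.0713 by edgeR), 0.55 in Con (SE 0.22, adjusted p = 0.362) and 0.34 in SAP (SE 0.22, adjusted p = 0.35). The tests of the difference from SAP did not pass: the interaction with time was 1.09 for Emo (SE 0.31, adjusted p = 0.0511) and 0.96 for DEX (SE 0.31, adjusted p = 0.178). The interaction for Emo was called by DESeq2 (adjusted p = 0.0187), with RLE scaling (0.0488), and without Emo-24h rat 3 (0.0491), Emo-6h rat 2 (0.0189) or SAP-6h rat 1 (0.0357). Sham-24h rat 1 had the highest Lamp3 of all 30 rats (133 FPKM).

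Lpcat1 and Napsa gave the remaining calls with time. Lpcat1 was 39.7, 45.3 and 57.7 FPKM in DEX-6h and 66.2, 89.0 and 90.8 in DEX-24h, with no overlap. It was up-regulated in DEX-24h vs DEX-6h with a log2 fold change of 0.81 (SE 0.20, 1.75-fold, adjusted p = 0.00581 by edgeR). The call held with each library left out (adjusted p 0.006 to 0.0372) and under each of the 5 other settings. Lpcat1 in DEX-6h was the lowest group mean of that gene.

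Napsa was down-regulated in Emo-24h vs Emo-6h, from 521, 509 and 433 FPKM to 406, 346 and 345. Every 24 h rat was below every 6 h rat, as for 21.4% of all genes, and the log2 fold change was -0.46 (SE 0.17, adjusted p = 0.0417 by edgeR). The call was lost without Emo-24h rat 1, 2 or 3 (adjusted p 0.0526, 0.113 and 0.0827) and without Emo-6h rat 1 or 2 (0.135 and 0.0678). In DEX the same gene fell short of a call, with a log2 fold change of -0.43 (SE 0.17, adjusted p = 0.0689), and was called only without DEX-24h rat 3 (0.0464) or by DESeq2 (0.0381).

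These calls with time came from comparisons in which much of the transcriptome was called. In DEX-24h vs DEX-6h, 2 of 10 genes were called against 25.9% of all genes, and in Emo-24h vs Emo-6h, 2 of 10 against 34.1%, so the set was called no more often than other genes. In Sham, Con and SAP 0 of 10 genes were called by edgeR between the times (all genes 0.992%, 0.0126% and 6.01%), with 1, 3 and 2 at an unadjusted p under 0.05 (all genes 20.4%, 10.5% and 24.8%) and 1, 0 and 0 by DESeq2 (6.51% of all genes in Sham). All 10 log2 fold changes were above 0 in Con (median 0.39) and in SAP (median 0.34), with medians over all genes of -0.01 and 0.02. In DEX time, all 7 T cell and all 4 B cell markers were down-regulated, and in Emo time all 5 red blood cell markers were. Of the 6 fibroblast markers, 4 were down-regulated in DEX time (median log2 fold change -1.83), their summed FPKM running from 291.0 to 754.5 at 6 hours and from 167.1 to 228.8 at 24 hours. In Emo time 4 were down-regulated and 1 up-regulated (median -1.24), with sums of 697.0 to 841.5 and 215.6 to 428.5. In DEX time all 7 epithelial markers were above 0 (median 0.41, 1 called) and 2 of 7 alveolar type 1 markers were up-regulated (median 0.59), with sums that overlapped between the times. In Emo time 2 of 6 ciliated cell markers were up-regulated (median 0.91), with sums of 372.9 to 719.9 at 6 hours and 493.5 to 607.5 at 24 hours. The sum of 6 endothelial markers was lower in every rat at 24 hours, with 2 markers called higher and 3 lower in DEX and 2 each way in Emo. In Emo time the neutrophil sum was higher (4627 to 6835 against 1609 to 4107, none called) and the alveolar type 1 sum lower (1705 to 2552 against 2608 to 2953, 1 called each way) without overlap. The part of these markers in the calls was not tested.

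The interactions with time gave 0 of 10 calls by edgeR for SAP vs Sham, DEX vs SAP and Emo vs SAP, against 0.0314%, 0.169% and 3.57% of all genes. At an unadjusted p under 0.05 there were 0, 1 and 2 (13.6% and 23.4% of all genes in the latter pair), and DESeq2 called 0, 0 and 2 (9.22% of all genes for Emo vs SAP). The largest, beside Lamp3, was Sftpb for Emo vs SAP at -0.95 (SE 0.33, adjusted p = 0.093 by edgeR), since Sftpb was 0.26 above SAP on the log2 scale at 6 hours and 0.69 below it at 24 hours. It was called without Emo-24h rat 3 (adjusted p = 0.0434).

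Sftpa1, Abca3, Slc34a2 and Etv5 stayed without a call in all 21 comparisons, as did Sftpc. Sftpa1, a collectin, had group means between 3445 FPKM in Emo-6h and 5170 in DEX-24h. Abca3 had means from 51.3 in Sham-24h to 77.4 in Con-24h, Slc34a2 from 479 in Sham-6h to 692 in Con-24h, and Etv5, an ETS factor downstream of FGF receptor signalling in type 2 cells, from 19.99 in Sham-6h to 31.5 in Con-24h. By FPKM, Con-24h was the highest group for 5 of the 10 genes: Sftpc, Sftpd, Abca3, Slc34a2 and Etv5. By TMM-scaled counts it was highest for 3 of them, and SAP-24h was highest for Sftpd, Slc34a2 and Lpcat1.

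Genes with related work were taken from 5 lists. Of 12 tested genes of surfactant lipid synthesis, 1 was up-regulated in SAP-24h vs Sham-24h, where 12.4% of all genes were called: Chka, choline kinase (log2 fold change 0.58, SE 0.16, adjusted p = 0.0211 by edgeR). In Emo-24h vs SAP-24h, 2 of 12 were down-regulated (8.59% of all genes called), Chka (-0.55, SE 0.16, adjusted p = 0.0357) and Pcyt1a, the rate-limiting enzyme of phosphatidylcholine synthesis (-0.44, SE 0.11, adjusted p = 0.0216). The rise and the drop of Chka share the SAP-24h rats. All of these were lost without SAP-24h rat 2 (adjusted p = 0.0814 and 0.114 for Chka and 0.0642 for Pcyt1a), and the first also without Sham-24h rat 1 and the others without Emo-24h rat 1 or 2. Chka was also higher in SAP-24h than in Con-24h (0.66, SE 0.16, adjusted p = 0.00547), where 22.1% of all genes and 3 of the 12 were called, and this held with each library left out. None of the 12 was called in DEX vs SAP at either time, in SAP-6h vs Sham-6h or in Emo-6h vs SAP-6h. With time, Chka was the only one of the 12 called in SAP, being higher at 24 hours (0.71, SE 0.16, adjusted p = 0.0124, 6.01% of all genes called). This call held with each library left out, but the count for the list was 4 in place of 1 without SAP-24h rat 2, with 2 higher and 2 lower. Other cells differed in both comparisons of Chka. Those against Con-24h were given with Etv5. Between the SAP times, 4 of 6 fibroblast, 3 of 7 T cell and 3 of 5 red blood cell markers were lower at 24 hours (4, 3 and 2 without rat 2, and 3, 1 and 0 without rat 1), and the endothelial sum was 908.7 to 960.4 against 1203 to 1615. The B cell sum was also lower in every SAP-24h than in every SAP-6h rat (20.01 to 35.0 against 39.4 to 59.3, none called). Higher in every SAP-24h rat were the sums of the further alveolar type 2 markers (25377 to 33004 against 16706 to 24525, 1 called, and 0 without rat 1 or 2) and of the club cell markers (37525 to 47318 against 28274 to 29599, none called). The median log2 fold change of the type 2 list was not raised with the sum, at 0.01, -0.31 and -0.01 without SAP-24h rat 1, 2 or 3. For the club cell list it was 0.65, 0.55 and -0.34 in the same order. The part of these markers in the Chka calls was not tested. With time, 2 of the 12 were higher and 2 lower in DEX, and 2 higher and 1 lower in Emo, against 25.9% and 34.1% of all genes called. Fasn, fatty acid synthase, fell with time in DEX (-0.89, SE 0.26, adjusted p = 0.0148) and in Emo (-0.92, SE 0.26, adjusted p = 0.00891), while Cept1, which makes phosphatidylcholine, rose (0.78 and 1.01, SE 0.22 in both, adjusted p = 0.013 and 0.00158). Cept1 in Emo held with each library left out. Fasn in DEX was lost without DEX-24h rat 1 or 2 or DEX-6h rat 3 (highest adjusted p = 0.0876), Cept1 in DEX without DEX-6h rat 3 (0.0768) and Fasn in Emo without Emo-6h rat 2 (0.0555).

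Of 8 genes for the processing, lamellar bodies and secretion of surfactant, 1 was called at 24 hours in SAP against Sham and 1 in each drug group against SAP, where 12.4%, 7.71% (DEX) and 8.59% (Emo) of all genes were called. In Emo-24h it was Ctsh, the cathepsin that helps to cut the surfactant protein B precursor, whose mean was 422 FPKM in Emo-24h and 770 in SAP-24h (log2 fold change -0.996, SE 0.29, adjusted p = 0.0375 by edgeR). P2ry2, a receptor for ATP that triggers surfactant secretion, was up-regulated in SAP-24h vs Sham-24h (0.57, SE 0.15, adjusted p = 0.0153) and lower in DEX-24h than in SAP-24h (-0.55, SE 0.15, adjusted p = 0.0241), with the same SAP-24h rats in both. In DEX-24h vs DEX-6h, 2 of the 8 genes, Adgrf5 (log2 fold change 0.54) and Rab38, were higher, against 25.9% of all genes called. Adgrf5 was lost without DEX-24h rat 1 or 2 or DEX-6h rat 1 or 2 (highest adjusted p = 0.157). Rab38, a small GTPase of lamellar bodies, rose with time in DEX (1.06, SE 0.20, adjusted p = 0.00083), as Lamp3 and Lpcat1 did, and this call held with each library left out. Without SAP-24h rat 2 Ctsh was not called (adjusted p = 0.0931), nor was it without SAP-24h rat 3 or Emo-24h rat 1 or 2. P2ry2 stayed called without SAP-24h rat 2 (0.00989 and 0.0173), but its rise was lost without SAP-24h rat 1 or Sham-24h rat 2 (highest adjusted p = 0.0929) and its lower level in DEX without DEX-24h rat 1 or 2 or SAP-24h rat 1 or 3 (0.0988).

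Of 8 transcription factors of type 2 cells, Nkx2-1 was down-regulated in DEX-6h vs SAP-6h, from 83.8 to 49.3 FPKM (log2 fold change -0.77, SE 0.18, adjusted p = 0.0347 by edgeR). It was the only one of the 8 called in DEX vs SAP or Emo vs SAP at either time (0.979% of all genes in DEX-6h vs SAP-6h), and the call was lost whichever of the 6 libraries was left out (adjusted p 0.0522 to 0.204). With SAP-24h rat 2 left out, 1 of the 8 was called higher in DEX-24h vs SAP-24h, and with rat 3 left out 1 was called lower in Emo-24h vs SAP-24h. In the same comparison the sums of the macrophage (112.2 to 186.2 against 202.2 to 255.7), T cell (46.4 to 57.0 against 65.6 to 76.2) and red blood cell markers (768.6 to 6175 against 6261 to 9501) were lower in every DEX-6h than in every SAP-6h rat, with no marker of these lists called, and their part in the calls of DEX-6h vs SAP-6h was not tested. Klf5 was up-regulated in SAP-24h vs Sham-24h (0.46, SE 0.15, adjusted p = 0.0486), and Cebpa fell with time in Emo (-0.49, SE 0.15, adjusted p = 0.0132), as Napsa did. The Klf5 call was lost whichever of the 6 libraries was left out (adjusted p 0.0609 to 0.125), and the Cebpa call held in each case (0.0139 to 0.0493). These were 1 of 8 against 12.4% and 1 of 8 against 34.1% of all genes.

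In the list of 10 genes of FGF receptor signalling around Etv5, 2 were higher and 1 lower in SAP-24h vs Sham-24h, and 1 was higher and 1 lower in Emo-24h vs SAP-24h, against 12.4% and 8.59% of all genes. The relative Etv4 was down-regulated in SAP-24h vs Sham-24h (log2 fold change -1.90, SE 0.35, adjusted p = 0.00217 by edgeR) and up-regulated in Emo-24h vs SAP-24h (1.50, SE 0.35, adjusted p = 0.014). Its levels were low, at 2.34 FPKM in Sham-24h, 0.577 in SAP-24h and 1.80 in Emo-24h. Spry2, a feedback inhibitor of the pathway, moved the other way (1.06 and -0.93, SE 0.23 in both, adjusted p = 0.00579 and 0.0181), and both comparisons share the SAP-24h rats. All 4 of these calls held without SAP-24h rat 2. The count higher in SAP-24h vs Sham-24h was 0 without SAP-24h rat 1 and 3 without rat 2, and the count lower was 1 in both. Etv4 in SAP-24h held with each library left out, Spry2 there was lost without SAP-24h rat 1 (adjusted p = 0.0557), and both calls in Emo-24h were lost without SAP-24h rat 1 or Emo-24h rat 2 (highest adjusted p = 0.0644 for Etv4 and 0.149 for Spry2). Of the same 10 genes, 5 were higher (Fgf7, Fgf10, Fgfr2, Spry1 and Spred1) and 1 lower (Spry4) in DEX-24h vs DEX-6h. There were 3 higher in Emo-24h vs Emo-6h (Fgf7, Fgf10 and Spred1) and 1 lower in DEX-6h vs SAP-6h, the shares over all genes being 25.9%, 34.1% and 0.979%. In SAP-24h vs SAP-6h 2 were higher and 1 lower (6.01% of all genes called), and 0 and 0 without SAP-24h rat 1. In SAP-24h vs Con-24h 4 were higher and 1 lower (22.1% of all genes called), and 1 and 1 without SAP-24h rat 1. Fgf7, a growth factor for type 2 cells, was down-regulated in DEX-6h vs SAP-6h (-1.08, SE 0.22, adjusted p = 0.0217) and rose with time in DEX (1.35, SE 0.22, adjusted p = 0.00028) and in Emo (1.30, SE 0.22, adjusted p = 0.000179). In DEX time Fgfr2 was lost whichever library was left out (adjusted p = 0.056 to 0.124), Spry4 was lost in 5 of 6 cases and Spred1 without DEX-6h rat 2. The other calls of the list with time in DEX and Emo, those of Fgf7 among them, held with each library left out, and the 6 h call of Fgf7 was lost without DEX-6h rat 1 or 2 or SAP-6h rat 2 or 3 (highest adjusted p = 0.126). Etv5 itself was not called in any of these comparisons with all libraries in the fit.

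Surfactant is cleared by alveolar macrophages under the control of GM-CSF. Of 7 genes of this clearance, 3 were up-regulated in SAP-24h vs Sham-24h (12.4% of all genes called), of which Marco, listed at 0 in Sham-24h, is given no fold. The GM-CSF receptor genes Csf2rb (log2 fold change 2.27, SE 0.52, adjusted p = 0.00793 by edgeR) and Csf2ra (0.68, SE 0.19, adjusted p = 0.0213) were up-regulated in SAP-24h vs Sham-24h, and both were lower in DEX-24h than in SAP-24h (-2.38, SE 0.52, adjusted p = 0.00747, and -1.06, SE 0.19, adjusted p = 0.00164). Both comparisons use the same 3 SAP-24h rats, so their opposite signs are not independent. In DEX-24h vs SAP-24h (7.71% of all genes called) 1 of the 7 was higher: Cd36, a scavenger receptor for lipids (0.90, SE 0.27, adjusted p = 0.0411), a call lost without SAP-24h rat 1 or 2 or any DEX-24h rat (highest adjusted p = 0.148). The Csf2rb calls, and that of Csf2ra in DEX-24h, held with each library left out, and the rise of Csf2ra was lost without SAP-24h rat 3 or Sham-24h rat 1 or 2 (0.113). Marco was lost without SAP-24h rat 2 or any Sham-24h rat (0.0961). None of the 7 was called in Emo-24h vs SAP-24h. The summed neutrophil markers were at 4605 to 17706 FPKM in SAP-24h and 1609 to 4817 in DEX-24h, ranges that overlap, with 0 of 7 called. The epithelial, endothelial, club, T and B cell and further type 2 sums, given with Sftpc, separated these groups, and the part of all these markers in the receptor results was not tested.

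Across the 30 libraries the levels of the members were moderately correlated, apart from Lamp3. On log2 TMM CPM (counts scaled for library size) the median Pearson r over the 45 pairs was 0.51 and the median Spearman rho 0.49, and after removal of the group means the median r was 0.60. Sftpa1 and Sftpd were the closest pair (r 0.79), followed by Sftpc and Napsa (0.76) and Abca3 and Napsa (0.74). Lamp3 had a median r of -0.04 with the other 9, and its lowest was with Napsa (-0.42). All points share library, depth and group, so these values are a description with no p.

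The group differences set some pairs apart. Sftpb and Sftpc had an r of 0.17 over all 30 libraries and 0.76 within groups, where the means of all 10 groups are removed. For Lamp3 and Napsa r was -0.42 overall and 0.34 within groups. Rats of a group that had more of one member thus mostly had more of the others.

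**Figure D4:**
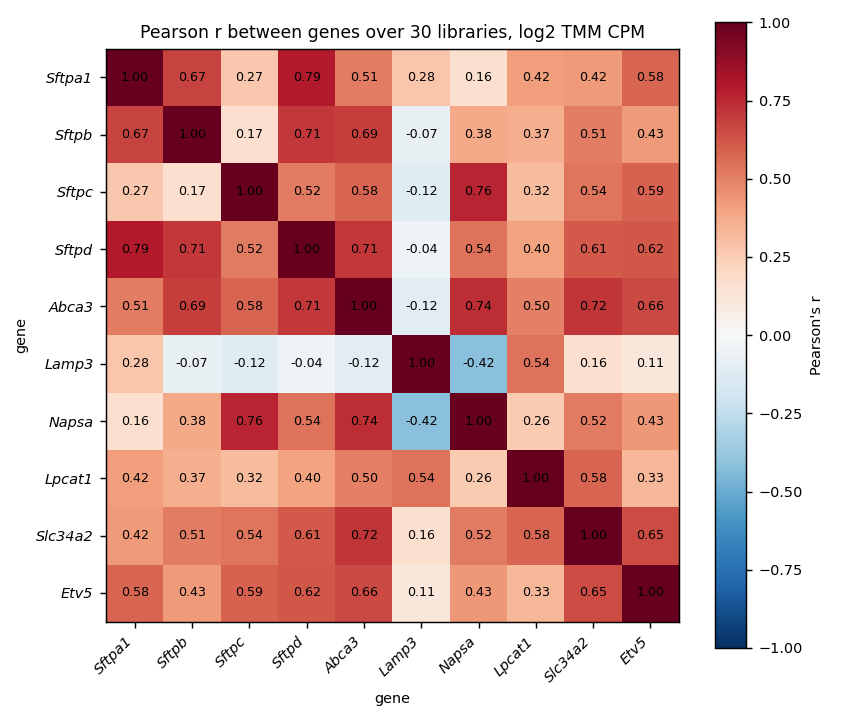
Pearson's r (colour and number) between each pair of the 10 genes over 30 libraries, on log2 TMM CPM. Lamp3 stands apart from the rest, with r between -0.42 (Napsa) and 0.54 (Lpcat1), and the highest pair is Sftpa1 and Sftpd (0.79).

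The genes outside the set whose pattern was most like it were sought among 12359 genes with a mean of at least 1 FPKM, by Pearson r with the mean standardised log2 CPM of the 10 members over 30 libraries. The 5 nearest were Tmem184a (0.77), Spint2 (0.77), a Kunitz-type protease inhibitor of epithelia, Zdhhc3 (0.76), Abhd14b (0.75) and Slc39a4 (0.74), a zinc transporter. For single members, the listed genes among their 5 nearest were Cebpa for Napsa (r 0.86), Acly, ATP citrate lyase, for Slc34a2 (0.73), Sftpd for Sftpa1 (0.79), Sftpa1 for Sftpd, and Napsa for Sftpc (0.76).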

How the data were processed

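RNA-seq libraries of polyadenylated lung RNA (directional, paired reads) from 30 rats were used, 3 in each of 10 groups taken from the sample titles. The authors trimmed the reads, mapped them with TopHat2 to the Ensembl rat genome with up to 2 mismatches, and kept uniquely mapped reads; the counting program is not given in the sources used here. The deposited counts are whole reads per gene for 22914 genes, not normalized. The deposited FPKM values, scaled for gene length and library size, cover all but 7 of those genes and were used for levels. No column was left unmapped.

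Here the counts were filtered with filterByExpr (minimum count 10, minimum total 15), scaled by TMM and fitted in edgeR 4.0.16 (limma 3.58.1, R 4.3.3) as 10 groups with 20 residual degrees of freedom. p-values were adjusted by Benjamini-Hochberg over 15934 genes. The samples were separate rats. Correlations used log2 CPM with a prior count of 2. Alternatives were RLE scaling, no filter, DESeq2 1.42.0, a replicate block, fits of only the groups compared, TMM CPM for the ratios of group means, log2(FPKM + 1) or log2(FPKM + 0.1) for correlations, and each library left out. The steps were tested on simulated data. Python 3.11.15, numpy 2.4.6, pandas 2.3.3, scipy 1.17.1 and matplotlib 3.10.9 made the other tables and figures.

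Reads on genes per library ran from 16813949 to 34692306, and the spread between rats of a group was 37.4 to 208 times the counting variance. The members and gene lists were chosen with earlier results of these data known. All 10 members are named; of the lists, called genes in SAP vs Sham, DEX vs SAP, Emo vs SAP or 24 h vs 6 h may be named, up to 4 a list and comparison by smallest p; the nearest genes are the 5 with the highest r. Scd, Chil1, Foxj1, Pecam1, Jchain, Hba-a2 and Hba-a3 of the lists had no row by that symbol. The long non-coding RNA tables and the tissue and blood assays are not used here.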

Additional observations from a re-analysis of the deposited data

How the results depend on the processing

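With 3 rats a group, small changes of genes this variable are hard to call. In the 21 comparisons, RLE scaling and DESeq2 each changed the sign of 3 of 210 log2 fold changes, all near 0 (Etv5 in Emo-24h vs Sham-24h, Sftpb and Lpcat1 in Sham-24h vs Sham-6h), and moved the median of the 10 genes by at most 0.03. Of the member changes with an unadjusted p under 0.05, none changed direction under the alternatives run. Ratios of highest to lowest group mean and the median r between members moved by less than their spread on the other scales.

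The number of the 10 genes called changed as follows. With DESeq2 it was 4 in DEX-24h vs DEX-6h (2 by edgeR), 1 in DEX-24h vs SAP-24h, DEX-6h vs SAP-6h, Emo-6h vs SAP-6h and Sham-24h vs Sham-6h (0), 2 in DEX-6h vs Sham-6h (1), 3 in Emo-24h vs SAP-24h (1), 3 in SAP-24h vs Sham-24h (1), 3 in Sham-24h vs Con-24h (0) and 2 in the interaction of Emo vs SAP with time (0). The share of all genes that DESeq2 called was 28.5% in DEX-24h vs DEX-6h, 13.6% in DEX-6h vs Sham-6h, 13.7% in Emo-24h vs SAP-24h, 17.1% in SAP-24h vs Sham-24h, 15.7% in Sham-24h vs Con-24h and 9.22% in that interaction. It was 11%, 2.65%, 0.672% and 6.51% in the 4 comparisons with 1 gene. With RLE scaling it was 1 in Sham-24h vs Con-24h and 1 in the interaction of Emo vs SAP (0 each by TMM), and 3 in DEX-24h vs DEX-6h (2). With no filter it was 0 in Emo-6h vs Sham-6h (1). In fits of only the groups compared it was 0 in DEX-6h vs Sham-6h, Emo-6h vs Sham-6h, Emo-24h vs SAP-24h and SAP-24h vs Sham-24h (1 each), and 2 in Emo-24h vs DEX-24h (1). The cause was not tested, except that these fits hold fewer samples.

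Leaving out each library in turn, the counts ran from 2 to 4 in DEX-24h vs DEX-6h, 0 to 1 in DEX-24h vs SAP-24h and SAP-24h vs Con-24h, 0 to 2 in DEX-6h vs Sham-6h and SAP-24h vs Sham-24h, 0 to 1 in Emo-6h vs Sham-6h, 1 to 2 in Emo-24h vs Emo-6h, 0 to 3 in Emo-24h vs SAP-24h and 0 to 2 in the interaction of Emo vs SAP with time. In the other 15 comparisons and interactions they did not change. Over all settings, of the counts of called genes 237 stayed within 1.5 times and 45 did not.

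The groups share replicate numbers 1 to 3, but the numbers do not pair the rats: in 2 of 45 pairs of groups all 3 same-numbered rats had r over 0.1 (median r -0.0065), and in 5 every rat correlated best with its own number. With the number as a replicate block the count in Emo-6h vs Sham-6h was 0 in place of 1 (Lamp3, adjusted p = 0.0574), and the block changed no other count by over 1.5 times.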

Other observations

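Markers of the neighbouring alveolar type 1 cell, which covers most of the alveolar surface and arises from type 2 cells, were down-regulated in SAP-24h vs Sham-24h in 3 of 7 cases, where 12.4% of all genes were called. Aqp5, a water channel, fell from 201 to 63.7 FPKM (log2 fold change -1.55, SE 0.50, adjusted p = 0.0421 by edgeR), Clic5 from 141 to 78.2 (-0.74, SE 0.23, adjusted p = 0.037) and Akap5 from 54.3 to 22.5 (-1.17, SE 0.39, adjusted p = 0.0483). Each call was lost when one of several libraries was left out (highest adjusted p = 0.177, 0.196 and 0.15). Without SAP-24h rat 2 the adjusted p was 0.0567, 0.0197 and 0.0513. Without SAP-24h rat 1, 0 of the 7 markers were called. The median log2 fold change of the 7 was then -0.46, against -0.93 without rat 2 and -0.92 without rat 3. In DEX-6h vs Sham-6h Aqp5 (-1.82, SE 0.50, adjusted p = 0.0235) and Akap5 (-1.38, SE 0.39, adjusted p = 0.0269) were also down-regulated (9.75% of all genes called), with calls lost without DEX-6h rat 1 among others, and none of the 7 was called in Emo-6h vs Sham-6h or DEX-24h vs Sham-24h.

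Slc26a9, an epithelial anion transporter, was up-regulated in DEX against Sham at both times, unlike most of the 8 further type 2 markers it was listed with. Of these, 2 of 8 were above 0 at 6 hours (median -0.18) and 3 of 8 at 24 hours (median -0.21), where Cd74, which also marks antigen-presenting cells, was lower (-1.78, SE 0.29, adjusted p = 0.000726). The share of all genes called was 9.75% and 6.97%. The mean of Slc26a9 was 8.42 FPKM in DEX-6h and 4.24 in Sham-6h (log2 fold change 1.02, SE 0.28, adjusted p = 0.0241 by edgeR), and 11.8 in DEX-24h and 5.84 in Sham-24h (1.05, SE 0.28, adjusted p = 0.0234). It was lower in Emo-24h than in DEX-24h (-1.25, SE 0.28, adjusted p = 0.00701), a call that held with each library left out, while those against Sham were lost without Sham-6h rat 1, DEX-6h rat 1 or 3, Sham-24h rat 1, or DEX-24h rat 2 or 3 (highest adjusted p = 0.148 and 0.126). These markers were named after their values were seen.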
